A study of Rattus norvegicus with 30 samples.

Results

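In the control cortex, 7627 short H3K4me3 intervals lay in wide H4K16Ac domains, and they are described here across all 10 peak lists of the series. They were chosen by 2 measured values, the width of the control H3K4me3 interval (under 400 bp) and the width of the control H4K16Ac interval that it touched by at least 1 bp (2000 bp or more). They made up 6.75% of the 113056 distinct control H3K4me3 intervals and 18.55% of the 41116 that were under 400 bp. The tissue was the frontal lobe cortex of Wistar rat embryos on day E14.5, and 30 ChIP-seq libraries were made from it with antibodies against H3K4me3, H4K16Ac, H3K27me3, total H3 and pan H4. In the control group the dams ate normal chow, and in the HFD group they ate a high-fat diet with 60% of its calories from fat, 20% from protein and 20% from carbohydrate, before and during pregnancy. The cortices of a whole litter were pooled for 1 replicate, and each antibody and diet had 3 libraries, which the authors merged into 1 list of called intervals. A tissue list therefore averages over all cell types of the frontal cortex. One library, replicate 3 of total H3 in control, is labelled control in its title and HFD in its treatment. It was taken as control by its title, and its share of the control total H3 list cannot be separated out.

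H3K4me3, trimethylation of lysine 4 on histone H3, is the mark of active and poised promoters, where it typically forms an interval over the nucleosomes around the start of transcription. H4K16Ac, acetylation of lysine 16 on histone H4, loosens the packing of nucleosomes and is found over open, transcribed chromatin and enhancers. H3K27me3 is laid down by the Polycomb complex at silenced developmental genes, and together with H3K4me3 it marks the bivalent promoters known from stem and progenitor cells. Antibodies against total H3 and pan H4 recognise the histone whatever its modification and serve as a reference for where nucleosomes are recovered. No gene is named with these intervals, because no rn6 annotation was used here, and whether an interval lies at a promoter was not analysed.

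The short intervals were weak in the control H3K4me3 list that chose them. Their median −log10 q, the strength of a call after correction for multiple testing, was 1.59, with 0.446 at the 10th percentile and 3.95 at the 90th. The fold enrichment over the local background had a median of 2.96 (10th to 90th percentile 2.21 to 4.03), and the median width was 338 bp (289 to 399 bp). A q of 0.05 was reached by 62.8% of them and a −log10 q of 5 by 397 (5.21%). Over all control H3K4me3 intervals these shares were 73.6% and 27.4%. Read back from the listed fold enrichment and p, the median summit rested on 8 overlapping fragments (10th to 90th percentile 5 to 13) over a local background of 1.87 fragments. At this depth each call turns on a few fragments. Short intervals in narrower H4K16Ac intervals had nearly the same strength (n = 21081, median −log10 q 1.57), those without any H4K16Ac were weaker (n = 12408, 0.931), and H3K4me3 intervals of 400 bp or more in wide domains were stronger (n = 16203, 3.16).

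In strength and in the HFD H3K4me3 share the width limits cut through a continuum. Intervals of 395 to 399 bp in wide domains (n = 273) had a median −log10 q of 1.99 and an HFD H3K4me3 interval in 45.4%, and those of 400 to 404 bp (n = 250), just outside the rule, had 1.97 and 44.8%. Where the widest H4K16Ac interval was 2000 to 2099 bp (n = 551), the median −log10 q was 1.60 and 42.6% had an HFD H3K4me3 interval. Where it was 1900 to 1999 bp (n = 552), these values were 1.60 and 39.3%. Just above and just below 2000 bp, a wide HFD H4K16Ac domain was found at 38.7% and 28.8%, and control H3K27me3 at 22.9% and 25.5%. At 395 to 399 bp and 400 to 404 bp, control H3K27me3 was found at 28.9% and 34.4%.

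Fewer than 4 in 10 of the short intervals were called in the HFD H3K4me3 list. An HFD H3K4me3 interval shared at least 1 bp with 2927 of them (38.4%, 95% Wilson interval 37.3% to 39.5%), against 54.9% of all control H3K4me3 intervals. All intervals of this kind cover counting error only, as each antibody and diet has 1 list and the spread between replicates cannot be seen. The share was 40.6% in short intervals of narrower H4K16Ac, a difference of −2.26 percentage points (members minus the others, −3.53 to −0.976). With intervals under 300 bp only, the 2 shares were 34.0% and 33.9%. It was 9.54% in short intervals without H4K16Ac and 71.6% in the longer intervals of wide domains. The background pileup of the HFD H3K4me3 list was 87.7% of that of the control list, and the part of this lower depth in the shares was not tested. Where an HFD interval was found, its summit lay a median of 69 bp from the control summit, and 74.4% of the summits were within 150 bp. The shared base that is required itself limits this distance, and no other class was measured. The HFD intervals had a median width of 412 bp, 53.8% of them reached 400 bp, and their median −log10 q was 2.30, against 1.94 for the same members in control. The rule held the control width under 400 bp and left the HFD width free, so these are a description and not a comparison of the diets.

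The same rule was applied the other way round, to the HFD lists. It gave 8062 short HFD H3K4me3 intervals in wide HFD H4K16Ac domains, 7.47% of the HFD H3K4me3 list, and 3216 of these (39.9%, 38.8% to 41.0%) had a control H3K4me3 interval. The shares found in the other diet were thus 38.4% and 39.9% in the 2 directions. Over all intervals of the control and the HFD H3K4me3 list they were 54.9% and 57.7%. The control intervals found at HFD members were also wider and stronger than the intervals chosen, with a median width of 449 bp, 62.4% of at least 400 bp and a median −log10 q of 2.30 against 1.91 for the same places in HFD. The rule was met in both diets at the same place by 856 intervals, 11.2% of the control members and 10.6% of the HFD ones. This count requires both width limits to be passed in each diet, and no such share was read for another class. Of the HFD intervals found at control members, 12 were 2000 bp or wider, with a maximum of 2846 bp. Members without an HFD interval had a lower median −log10 q in control (1.56) than those with one (1.94).

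The share found again in HFD rose with the strength of the call. It was 30.8% of the 2834 members with a control −log10 q below 1.3, 38.7% of the 3214 between 1.3 and 3, 47.0% of the 1182 between 3 and 5 and 63.5% (58.6% to 68.1%) of the 397 at 5 or more. Short intervals of narrower H4K16Ac had 29.3%, 38.8%, 53.3% and 71.9% in the same bins. Below 3 the 2 classes were close, and in the 2 bins from 3 upward the members were found less often, by intervals that do not overlap. The bin at 5 or more has no upper limit, and the classes were not matched for strength within it. In it 51 of the 397 members and 268 of the 1402 short intervals of narrower H4K16Ac reached 10. From 10 upward the shares were 82.4% (69.7% to 90.4%) and 88.8% (84.5% to 92.0%), by intervals that overlap. Without H4K16Ac the shares were 7.13%, 12.0%, 24.2% and 41.8%, below the members in every bin. The longer intervals of wide domains were above them in every bin, from 44.3% to 94.7%. Over all control H3K4me3 intervals the share was 93.5% at 5 or more (n = 31019). For the weaker bins it is given further on, split by control H3K27me3.

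**Figure D1:**
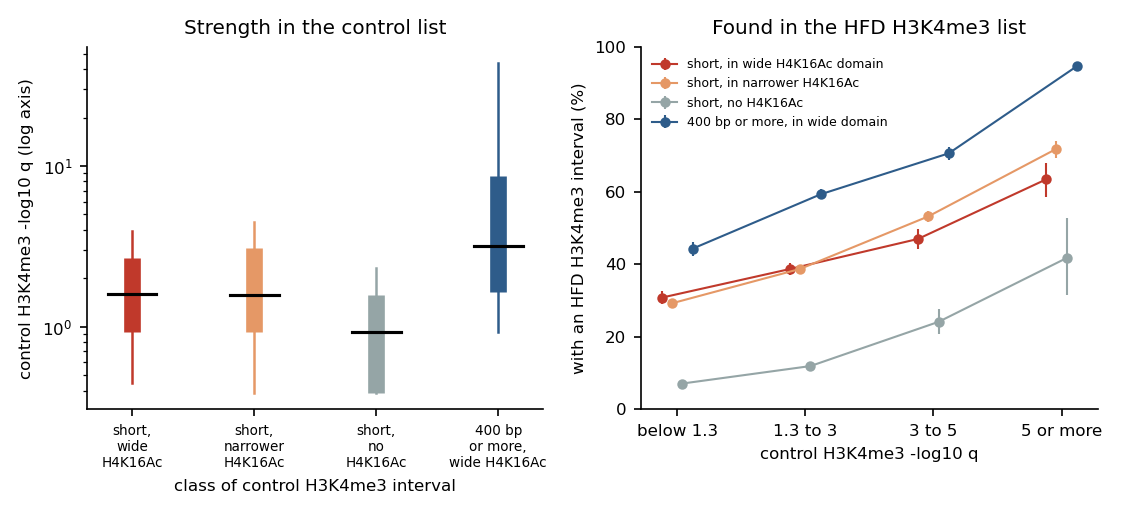
Left, control H3K4me3 −log10 q (log axis) of 4 classes of control H3K4me3 interval, with a thin line from the 10th to the 90th percentile, a thick bar from the 25th to the 75th and a black line at the median. Right, the percentage of each class with an HFD H3K4me3 interval by bin of control −log10 q, with 95% Wilson intervals; the members (red) rise from 30.8% to 63.5%.

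H4K16Ac was called again at nearly all of the short intervals in HFD. The rule held its control width at 2000 bp or more and left its HFD width free, so the widths are a description and not a comparison of the diets. An HFD H4K16Ac interval lay on 6882 members (90.2%, 89.5% to 90.9%), where control H4K16Ac is 100% by the rule and was present at 82.8% of all control H3K4me3 intervals, and HFD H4K16Ac at 81.6%. The HFD interval was itself 2000 bp or wider at 4529 members (59.4%, 58.3% to 60.5%, with 19.4% over all control H3K4me3 intervals). The members were chosen for a wide control domain, and all control H3K4me3 intervals were not. Among the longer intervals of wide domains, any HFD H4K16Ac lay on 97.1% and a wide HFD interval on 67.2%. The members were lower by these measures, by −6.85 percentage points (−7.58 to −6.15) and −7.80 points (−9.12 to −6.48). In short intervals of narrower H4K16Ac the shares were 85.3% and 7.43%. The median width of the H4K16Ac interval was 2919 bp over the 7627 members in control and 2416.5 bp over the 6882 in HFD. In the members with both, 68.3% had a narrower interval in HFD. Of the members chosen on the HFD lists, 66.1% (65.1% to 67.1%) had a wide domain in control, and 61.1% of those with an interval in both diets had a narrower one in control. The median −log10 q of the interval was 2.31 over the 7627 members in control and 2.79 over the 6882 with a call in HFD. Of the 745 members without any HFD H4K16Ac, 72 (9.66%) had an HFD H3K4me3 interval, against 41.5% of those with it. This split was not made over all control H3K4me3 intervals, so it is not shown to be particular to the members.

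Total H3 and pan H4 were called at most of the short intervals. A total H3 interval lay on 5372 in control (70.4%, 69.4% to 71.4%, with 72.6% over all control H3K4me3 intervals) and on 5451 in HFD (71.5%, 70.4% to 72.5%, with 73.0% over all). Pan H4 was listed at 5412 in control (71.0%, 69.9% to 72.0%, with 76.8% over all) and at 6091 in HFD (79.9%, 78.9% to 80.7%, with 78.4% over all). The control pan H4 share differed from that of short intervals in narrower H4K16Ac by −4.38 percentage points (−5.56 to −3.21). For total H3 and for HFD pan H4 the interval of this difference included 0. Where total H3 was called, its summit lay a median of 59 bp from the H3K4me3 summit in control and 55 bp in HFD. For pan H4 these distances were 65 bp and 54 bp. Only calls that share a base with the member enter here, which itself limits the distances, and no other class was measured. At the members with a call, the median −log10 q was 4.19 and 4.51 for total H3 and 3.53 and 7.05 for pan H4, in control and HFD, over intervals on which the rule set no limit of width. Members with a control total H3 interval had an HFD H3K4me3 interval in 45.7%, and those without in 20.9%. For control pan H4 these shares were 45.2% and 21.7%. These splits were not made over all control H3K4me3 intervals, so they are not shown to be particular to the members.

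Pan H4 was called at more of the short intervals in HFD than in control. It was listed at 1322 members in HFD only (17.3%) and at 643 in control only (8.43%), and at 4769 in both (62.5%). Over all control H3K4me3 intervals these shares were 8.41%, 6.83% and 70.0%, and over short intervals in narrower H4K16Ac 14.3%, 9.06% and 66.3%. Total H3 had 1033 in HFD only (13.5%), 954 in control only (12.5%) and 4418 in both (57.9%). Over all control H3K4me3 intervals its shares were 8.38%, 7.93% and 64.7%. The HFD background pileup was 109.6% of control for pan H4 and 111.2% for total H3, and the part of depth in either difference was not tested.

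H3K27me3 lay on 2120 short intervals in control (27.8%, 26.8% to 28.8%, with 40.4% over all control H3K4me3 intervals) and on 1039 in HFD (13.6%, 12.9% to 14.4%, with 26.9% over all). Both shares were below the background over all intervals. Among short intervals, however, H3K27me3 was more frequent in wide H4K16Ac domains. The control share was 9.64 percentage points (8.52 to 10.8) above that of short intervals in narrower H4K16Ac, where it was 18.2%, and the HFD share was 3.05 points (2.19 to 3.94) above, from 10.6%. The same order held in each bin of control H3K4me3 strength in control, with 21.3%, 26.6%, 37.7% and 54.7% of the members and 12.2%, 16.3%, 23.3% and 44.6% of the short intervals in narrower H4K16Ac. At the strongest of these bins the HFD shares were 27.2% and 29.5%. In HFD the members were higher in the 3 weaker bins, with 10.4%, 13.3% and 17.7% against 7.28%, 9.22% and 12.5%. When all lists were held to a −log10 q of 1.3 or more, the control share was 15.2% of the members left and 11.8% of the short intervals in narrower H4K16Ac. The longer intervals of wide domains had H3K27me3 in 60.7% in control and 39.6% in HFD.

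H3K27me3 was called mostly at different members in the 2 diets. It was present in both at 458, in control only at 1662 (21.8%) and in HFD only at 581 (7.62%), where the shares over all control H3K4me3 intervals were 21.4% in both, 19.1% in control only and 5.58% in HFD only. Thus 21.6% of the members with control H3K27me3 kept a call in HFD, against 21.2% of the short intervals in narrower H4K16Ac, 54.7% of the longer intervals in wide domains and 52.8% of all control H3K4me3 intervals. The HFD over control ratio of members with a call was 0.490. It was 0.582 for short intervals in narrower H4K16Ac, 0.653 for the longer intervals of wide domains and 0.666 over all control H3K4me3 intervals. The calls at members were weak, with a median average −log10 q of 1.13 in control and 0.805 in HFD, and median widths of 1134.5 bp and 672 bp. The background pileup of the HFD H3K27me3 list was 39.9% of that of the control list, 0.351 against 0.880 fragments per base. What part this depth had in the lower HFD share was not tested for these members. An HFD H3K4me3 interval was present at 54.5% of the 2120 members with control H3K27me3 and at 32.2% of the 5507 without it, where over all control H3K4me3 intervals these shares were 85.1% and 34.4%. Both marks were also more frequent at members with stronger control H3K4me3. Within its 4 bins of strength, from the weakest to the strongest, the HFD H3K4me3 share was 46.6%, 53.3%, 59.0% and 71.9% with control H3K27me3 and 26.6%, 33.5%, 39.8% and 53.3% without it. Over all control H3K4me3 intervals these shares were 52.1%, 66.5%, 78.3% and 97.0% with it and 20.3%, 35.6%, 52.0% and 69.5% without. The members were above all intervals only in the weakest bin without control H3K27me3. The strongest bin has no upper limit, so its shares are not at equal strength.

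**Figure D2:**
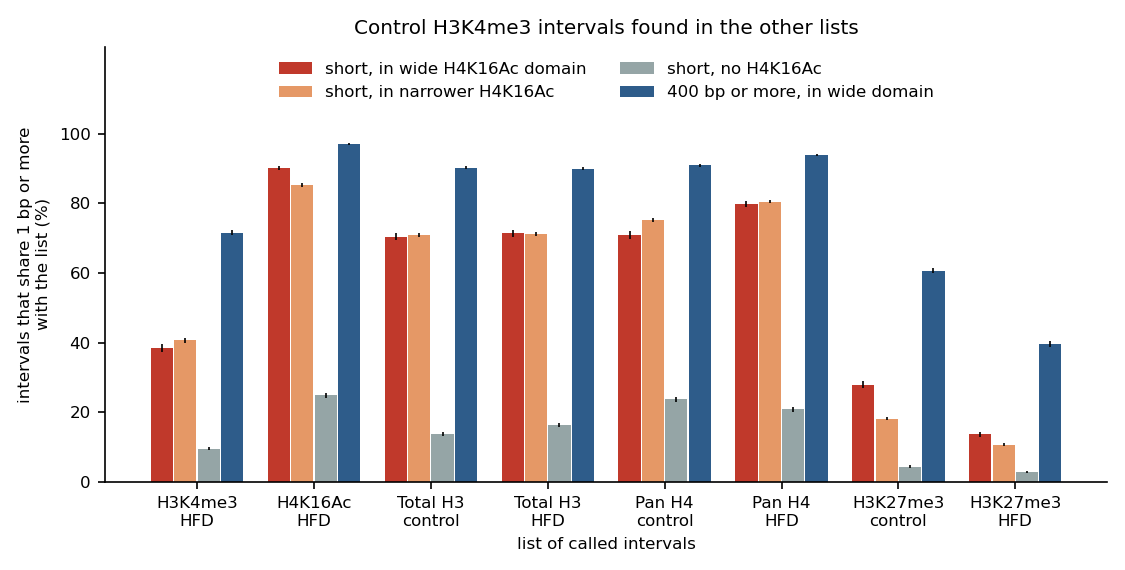
Percentage of control H3K4me3 intervals that share at least 1 bp with each of the other lists, for short intervals in wide H4K16Ac domains (red, n = 7627), short intervals in narrower H4K16Ac (orange, n = 21081), short intervals without H4K16Ac (grey, n = 12408) and intervals of 400 bp or more in wide domains (blue, n = 16203), with 95% Wilson intervals. The widest gap between the red and the orange bars is at control H3K27me3 (27.8% and 18.2%); red is also higher at HFD H4K16Ac (90.2% and 85.3%) and lower at control pan H4 (71.0% and 75.3%).

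Counted over the 8 lists that the rule did not use, 267 short intervals (3.50%) were called in all 8 and 211 (2.77%) in none, against 20.0% and 9.16% of all control H3K4me3 intervals and 2.55% and 3.17% of short intervals in narrower H4K16Ac. The most frequent number was 5 lists, with 1745 members (22.9%), followed by 6 lists with 1628 (21.3%), and short intervals in narrower H4K16Ac had 22.6% and 22.3% there. All control H3K4me3 intervals had 13.3% and 16.5% there, and their most frequent number was 8 lists.

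The short intervals were the sole H3K4me3 interval of their domain in 3645 cases (47.8%). Of the 25049 wide domains, 6711 (26.8%) held a member, 5856 of them 1 member, 797 had 2, 55 had 3 and 3 had 4. The wide domains were 14.4% of the control H4K16Ac intervals and 38.4% of the length they covered, 75.3 Mb. An H3K4me3 interval of 400 bp or more lay in the same domain for 2547 members (33.4%) and was lacking for 5080. Of the 898 members under 300 bp, 37.0% had a neighbour of 400 bp or more, and 53.1% had 1 of 300 bp or more. The nearest longer interval was a median of 985 bp away in the first set and 8589 bp in the second. Over all members the median gap was 5579.5 bp, with 17.3% (16.5% to 18.2%) within 1000 bp. Short intervals of narrower H4K16Ac were farther from a longer interval, with a median of 9832 bp and 5.08% (4.79% to 5.39%) within 1000 bp. A wide domain has more room for a further interval than a narrower one, and the part of this in the closeness was not tested.

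Members with a longer neighbour had H3K27me3 more often than those without. The control shares were 35.3% (33.4% to 37.1%) and 24.1% (22.9% to 25.2%), and the HFD shares 17.3% (15.9% to 18.8%) and 11.8% (10.9% to 12.7%). Their own H3K4me3 had a median −log10 q of 1.63 and 1.57. The share with an HFD H3K4me3 interval was 40.4% (38.5% to 42.3%) and 37.4% (36.1% to 38.7%), a difference of 2.98 percentage points (with minus without, 0.663 to 5.31). Control total H3 was at 70.2% and 70.5%, a difference of −0.29 points (−2.48 to 1.86). Control pan H4 was at 72.9% and 70.0%, a difference of 2.93 points (0.774 to 5.05). For total H3 and pan H4 in HFD the interval of the difference included 0. Domains with a longer neighbour were wider, with a median of 3135 bp against 2821 bp, and a wide HFD domain was found at 70.8% and 53.7% of the members. No other class was split by a longer neighbour, so these differences are not shown to be particular to the members.

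Total H3 and pan H4 were highest at the centre of the short intervals, fell off steeply and rose again farther out, more so with a longer neighbour. Control total H3 covered 12.1% and 12.9% of the positions 500 bp to either side with a longer neighbour and 23.6% and 24.5% at 1000 bp. Without one it covered 10.9% and 11.1% at 500 bp and 13.9% and 13.8% at 1000 bp. H4K16Ac had no such second rise over the first 2000 bp. In members with a longer neighbour, control H3K4me3 covered 21.4% of the positions 1000 bp to one side of the centre and 21.0% to the other, and without one it covered 2.91% and 2.85%. At the same distances HFD H3K4me3 covered 14.8% and 15.2% with a longer neighbour and 6.02% and 5.04% without one. Without a longer neighbour, HFD thus had H3K4me3 at more flanking positions than control, where the rule itself leaves no longer interval in the domain. At the centre control total H3 covered 67.2% with a neighbour and 67.3% without, and control H3K27me3 31.1% and 20.5%. At 5000 bp all lists but H4K16Ac covered under 10% of the positions. H4K16Ac covered 97.7% and 97.5% at the centre in control and 18.1% and 19.3% at 5000 bp to one side.

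**Figure D3:**
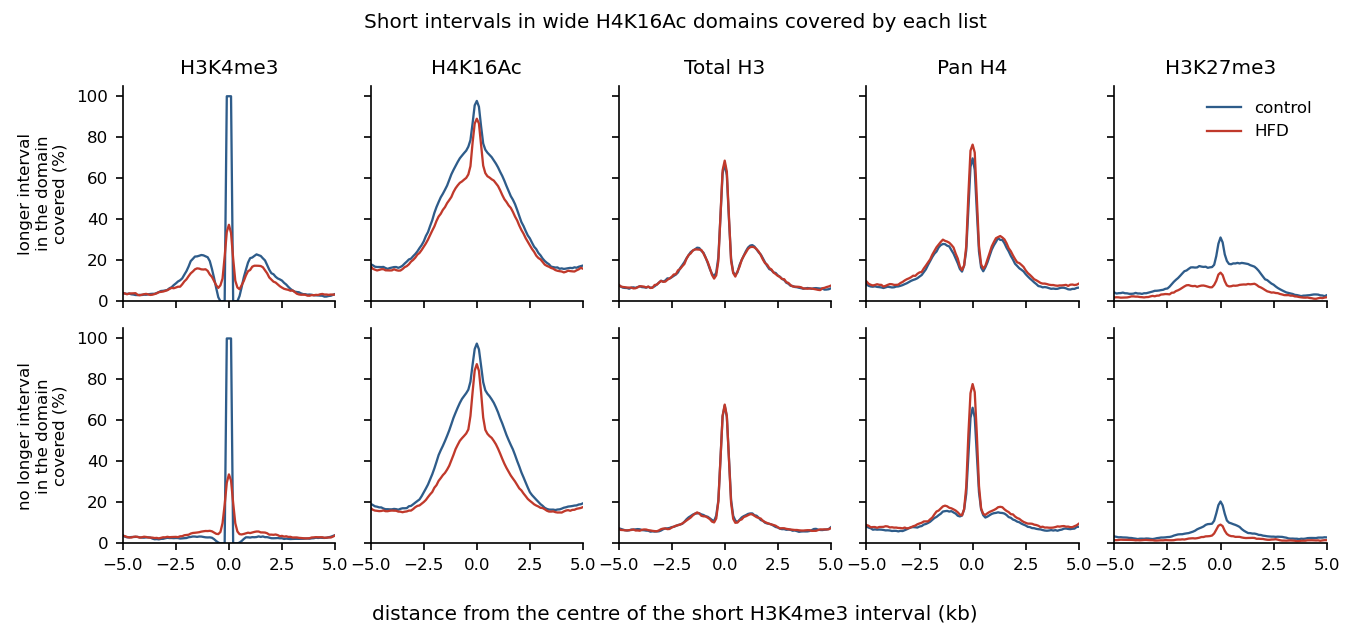
Percentage of short H3K4me3 intervals in wide H4K16Ac domains covered by each list at distances of up to 5 kb from their centre, in control (blue) and HFD (red), for the 2547 with a longer H3K4me3 interval in the domain (upper row) and the 5080 without (lower row). Total H3 and pan H4 peak at the centre in both rows; the shoulders at 1 to 2 kb are higher in the upper row, and control H3K4me3 is 100% at the centre by the rule.

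About 4 in 10 short intervals had their centre near an end of the domain. When each domain was divided into 10 equal parts, 39.7% of the members had their centre in the 2 outermost parts, 37.3% inside the domain and 2.41% beyond its end. The others lay farther in, with 17.5% in the 2 parts next to the outermost, 10.6% in the 2 after those, 14.9% in the following 2 and 17.3% in the middle pair. Of the longer intervals, 19.5% were in the outermost parts and 28.6% in the next. The centre of a longer interval cannot come as close to the end of a domain that contains it, so these shares are not comparable as such. By its own borders, a member crossed the edge of the domain in 20.3% (longer intervals 29.1%), lay inside within 200 bp of it in 28.5% (33.3%) and farther inside in 51.2% (37.6%). The 1550 members that crossed an edge were found less often in the other lists. An HFD H3K4me3 interval was present at 28.3% (26.1% to 30.6%) of them, against 42.0% (40.0% to 44.1%) of those inside within 200 bp and 40.4% (38.8% to 41.9%) of those farther in. Control total H3 followed the same order, with 58.2%, 75.9% and 72.2%, and so did control pan H4, with 60.8%, 76.4% and 71.9%. Control H3K27me3 was instead highest in those farther in (31.4%), with 26.8% near the edge and 20.2% across it. Shares in the other lists were not split by the edge for any other class, so this is not shown to be particular to the members.

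**Figure D4:**
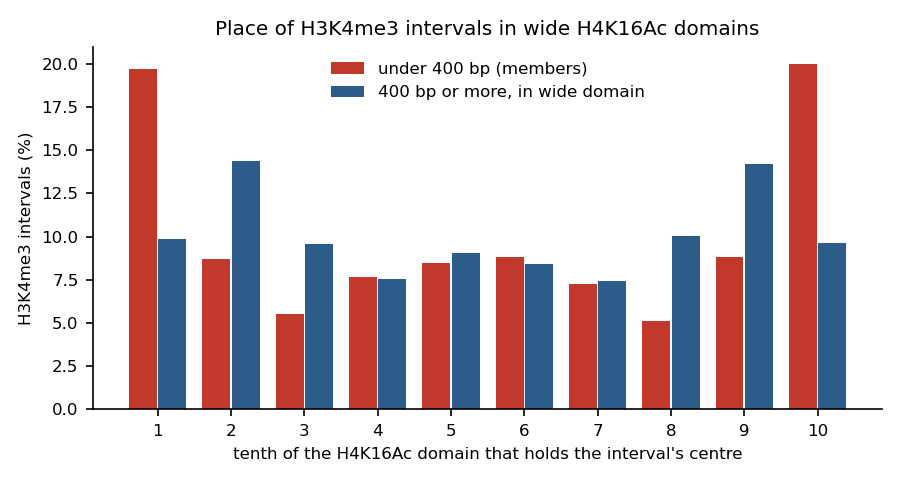
Percentage of H3K4me3 intervals in wide control H4K16Ac domains whose centre falls in each of 10 equal parts of the domain, for the 7627 under 400 bp (red) and the 16203 of 400 bp or more (blue); a centre beyond the end is counted in the outermost part. The red bars are tallest in the outermost parts, at 19.7% and 20.0%.

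The wider the domain in control, the more often a wide domain was called in HFD, at 52.5% of the 4047 members of domains under 3000 bp, 65.4% of the 2892 of 3000 to under 5000 bp and 74.7% of the 688 of 5000 bp or more. The HFD H3K4me3 share was 38.6%, 37.4% and 41.1% in the same order. Control H3K27me3 was at 25.4%, 30.3% and 31.5%. Control pan H4 went the other way, with 73.2%, 69.6% and 63.2%, and so did control total H3, with 71.4%, 70.3% and 65.3%. In HFD pan H4 was at 79.7%, 79.9% and 80.4% and total H3 at 71.6%, 71.2% and 71.7%. Other H3K4me3 intervals were not split by domain width, so these trends are not shown to be particular to the members.

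Counted by domain, those with short intervals alone stood between the other classes. Domains with a short interval and no longer one (n = 4337) had control H3K27me3 in 38.5% and HFD H3K27me3 in 23.6%. Those with both kinds (n = 2374) had 68.4% and 44.3%, those with a longer interval alone (n = 11574) 69.5% and 51.4%, and those without control H3K4me3 (n = 6764) 24.2% and 18.3%. An HFD H3K4me3 interval lay anywhere in the domain in 63.2%, 85.6%, 84.4% and 46.6%, in the same order. Domains with short intervals alone were slightly wider than those with none, with medians of 2766 bp and 2591 bp.

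On the chromosomes, 7606 of the members lay on 1 to 20, X and Y. The share of H3K4me3 intervals that were members was highest on chromosome 12 (11.0%), followed by 20 (9.82%), 19 (9.09%) and 10 (8.99%). It was lowest on X (2.62%). The share of H4K16Ac intervals that were wide was also highest on 12 (21.8%) and 20 (20.9%) and was 7.36% on X. The HFD H3K4me3 share ran from 33.6% on chromosome 13 to 44.9% on X among the chromosomes other than Y, which had 2 members and no such interval.

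The strongest short intervals were mostly called in the other lists too, least often in HFD H3K27me3. Most shares were below those of all control H3K4me3 intervals held to the same lower limit of strength. Of the 51 with a −log10 q of at least 10, 42 (82.4%) had an HFD H3K4me3 interval, 47 (92.2%) control total H3, 48 (94.1%) control pan H4, 40 (78.4%) control H3K27me3 and 27 (52.9%) HFD H3K27me3. Among all 20333 control H3K4me3 intervals from 10 upward these shares were 99.0%, 99.4%, 99.8%, 97.7% and 78.2%, and among the 268 short ones in narrower H4K16Ac 88.8%, 94.0%, 98.1%, 73.1% and 52.6%. These sets share a lower limit and are not of equal strength. Of the 51 members 10 reached 20, while the 90th percentile over all 113056 control H3K4me3 intervals was 32.8. Among the 10 with at least 20, the local background under the summit could be read for 9 and had a median of 48.5 fragments, against 1.87 over all members. The strongest was chr12:9549186-9549478 (rn6), 293 bp wide, in a domain of 3319 bp without a longer interval. Its H3K4me3 −log10 q was 365 in control and 399.8 in HFD, with fold enrichments of 11.3 and 11.3. Total H3 had 11.6 and 12.9 there, pan H4 10.5 and 11.0, and H3K27me3 6.999 and 10.3, over intervals of 275 to 300 bp except for control H3K27me3 (1136 bp). Total H3 and pan H4 were thus about as enriched at this place as H3K4me3, in both diets.

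At chr1:180896767-180897151 the H3K4me3 −log10 q was 102 in control and 295 in HFD, with fold enrichments of 5.44 and 6.23 over a local background of 48.5 fragments in control. Pan H4 had 6.83 and 7.04, and total H3 6.03 and 6.82. At chr13:33502602-33502919 the control interval was 318 bp wide with a −log10 q of 59.7 and a fold enrichment of 2.58 over a local background of 160 fragments. The HFD interval there was 2831 bp wide, with a −log10 q of 2765 and a fold enrichment of 10.7 at its strongest summit. Pan H4 widened likewise at this place, from 506 bp to 2837 bp, and its fold enrichment was 2.76 in control and 10.3 in HFD. Total H3 did not, with 430 bp and 490 bp and fold enrichments of 2.97 and 2.78. In control a longer H3K4me3 interval lay 463 bp from the member, within the same domain. The HFD fold enrichments of H3K4me3 and pan H4 are those of the strongest summit anywhere in these wide intervals. They are not values at the member itself, so a rise in enrichment at the member is not shown.

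At chrX:36471465-36471857 the H3K4me3 fold enrichment was 4.18 in control and 3.34 in HFD, with a local background of 32.0 fragments, and all 8 other lists had a call. At chr3:12471744-12472121 it was 8.26 and 6.47 over a background of 6.39 fragments. This place had an H3K27me3 interval of 2103 bp in control, with a −log10 q of 39.2, and none in HFD. Of the 5 strongest members it was the 1 without HFD H3K27me3. These 5 were chosen for their control H3K4me3 value. The HFD H3K4me3 intervals that touched the first 3 of them also had the highest −log10 q of those at any member on chromosomes.

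The 3 strongest members without an HFD H3K4me3 interval were called in 4, 6 and 7 of the 8 lists that the rule did not use. At chr4:119072663-119073021 control H3K4me3 had a −log10 q of 26.5 and a fold enrichment of 10.4 over a background of 2.55 fragments. Pan H4 had fold enrichments of 14.3 in control and 16.5 in HFD. Total H3 was listed in HFD only, at 18.3, and H3K27me3 in neither diet. This member had the largest total H3 value of the strongest members, in the diet where its H3K4me3 was not called. At chr20:4689817-4690204 the control H3K4me3 fold enrichment was 4.14, total H3 had 4.87 in control and 5.86 in HFD, and pan H4 had 3.86 and 6.89. At chr20:5424363-5424729 H3K4me3 had 7.27 in control, total H3 11.0 and 9.37, and pan H4 9.80 and 8.80. The H4K16Ac interval at these places, chosen to be wide in control, measured 2340, 4510 and 2501 bp there and 1638, 2381 and 1656 bp in HFD, and 68.3% of all members with HFD H4K16Ac likewise had a narrower interval in HFD.

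**Figure D5:**
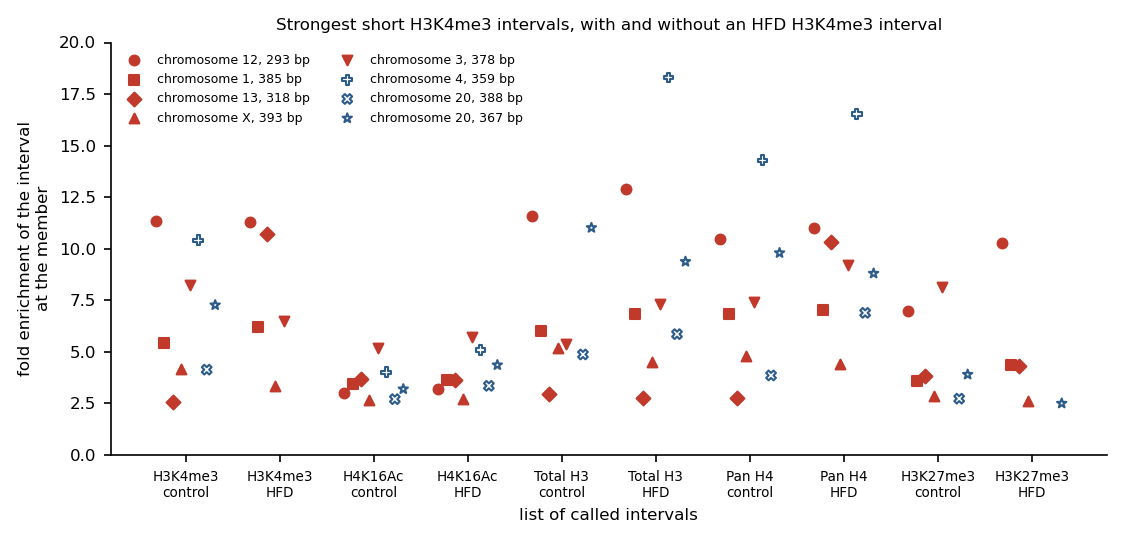
Fold enrichment of the called interval in each list at the 5 short intervals with the highest control H3K4me3 −log10 q (filled, red) and at the 3 strongest without an HFD H3K4me3 interval (open, blue); a missing point is a place without a call. Total H3 and pan H4 reach values as high as H3K4me3 at most of these places, up to 18.3 at the open plus.

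The strongest member of the domain was of ordinary strength in 2 of the 3 widest domains and strong in 1. Over all 688 members of domains of 5000 bp or more the median −log10 q was 1.63. In chr10:45371743-45387510, 15768 bp wide, the strongest member (chr10:45372482-45372788) had a −log10 q of 1.64, and an HFD H4K16Ac interval of 1070 bp lay on it. It had total H3 in control, and no H3K4me3 or pan H4 in HFD. In chr20:7149024-7161980 (12957 bp) the member at chr20:7149944-7150293 had 1.83 and an HFD H4K16Ac interval of 6096 bp. In chr4:126635162-126646947 (11786 bp) the member at chr4:126638105-126638428 had 7.78 and was called in 7 of the 8 other lists, with an HFD H4K16Ac interval of 3191 bp. The HFD H4K16Ac interval was narrower at all 3, which were chosen for their width in control.

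Of the 3 domains with 4 members, 2 were on chromosomes. In chr3:174904254-174911129 (6876 bp) the 4 had −log10 q values from 0.387 to 0.876, and 1 of them had an HFD H3K4me3 interval. In chr6:136792987-136797284 (4298 bp) the values were 0.423 to 2.004, and 2 had one. All 4 of the latter had HFD H4K16Ac, total H3 in both diets and HFD pan H4, and 3 had control H3K27me3 and none HFD H3K27me3. The first in chromosome order of the 55 domains with 3, chr1:99718591-99720957 (2367 bp), had values of 1.16 to 1.92, with an HFD H3K4me3 interval at 2 of the 3. None of these domains held a longer H3K4me3 interval.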

How the data were processed

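ChIP-seq reads were aligned by the authors to rn6 with Bowtie2 and processed with MACS2 and deepTools, as the methods and the submitters' processing notes state. For MACS2 and deepTools the methods name recommended options without listing them. The versions, the use of an input and the handling of duplicate reads are not given in the sources used here. The authors deposited 10 lists, each called on 3 libraries, of which 6 are narrow and 4 (H4K16Ac and H3K27me3) broad. Each deposited list gives the fold enrichment as a ratio to the background around it, with its p-value and q-value as −log10. These belong to the summit in narrow lists and are averages over the interval in broad ones. The lists hold intervals with a q of up to 0.50.

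Repeated narrow intervals were counted once, with their strongest summit. Intervals that shared at least 1 bp were taken as found in both lists. Shares have 95% Wilson intervals and differences have Newcombe intervals, both for counting error only. No test was run, since each antibody and diet has 1 list. The pileup was searched among whole numbers from fold enrichment and p. The −log10 p of the best one was within 0.1% of the listed value at 7626 of 7627 members. Functions were tested on simulated data. The work was done in Python 3.11.15 with pandas 2.3.3 and numpy 2.4.6, statistics with scipy 1.17.1 and figures with matplotlib 3.10.9.

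Regions on chromosomes 1 to 20, X and Y were named by rule: the 5 members with the highest control H3K4me3 −log10 q, the 3 with the highest in HFD, the 3 highest in control without an HFD interval, the strongest in each of the 3 widest domains, and the 3 domains with the most members. The members, classes and rules were chosen with earlier results of these data known. The alternatives were thresholds on q, other widths, 50% overlap, lists of equal length and fewer sequences. Genes, cell type markers and sequences were not analysed here, because no rn6 genome or annotation was used.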

Additional observations from a re-analysis of the deposited data

How the results depend on the processing

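No paired analysis was possible because the 3 libraries of a group were called together as 1 list, and for the same reason no replicate could be left out. A share was taken as moved when an alternative left its 95% Wilson interval, and the number of members when it changed by more than 1.5 times. Of 50 alternatives 20 did neither, among them every value on chromosomes 1 to 20, X and Y only. When all lists were held to a −log10 q of 1.3 or more there were 4486 members, with HFD H3K4me3 in 35.2%, control total H3 in 73.0%, control pan H4 in 69.9%, control H3K27me3 in 15.2% and a longer neighbour in 28.8%. With 3 or more there were 657, with a wide HFD H4K16Ac domain in 57.8%, total H3 in 78.7%, pan H4 in 78.1%, H3K27me3 in 16.4% and a longer neighbour in 35.3%. Below 300 bp there were 898, with HFD H3K4me3 in 34.0%, total H3 and pan H4 each in 65.1% and a neighbour of 300 bp or more in 53.1%. With the neighbour kept at 400 bp or more, an alternative chosen after seeing the data, this was 37.0%. With domains from 3000 bp there were 3580, with an HFD domain of 3000 bp or more in 52.0%, total H3 in 69.4%, pan H4 in 68.4%, H3K27me3 in 30.6% and a longer neighbour in 39.0%. With an overlap of at least 50% HFD H3K4me3 was at 35.4%, total H3 at 68.1%, pan H4 at 68.1% and H3K27me3 at 24.4%. With lists of equal length H3K27me3 was at 22.7% and a longer neighbour at 32.2%. The cause was not tested, beyond the fewer intervals that stricter limits leave. H3K27me3 in control was more frequent at members than at short intervals of narrower H4K16Ac under each alternative run, with 11.8% and 7.64% in the latter at −log10 q of at least 1.3 and 3. HFD H3K4me3 was less frequent at members under each except below 300 bp (34.0% against 33.9%). Control total H3, where the interval of the difference included 0, was at 73.0% against 76.6% with −log10 q of 1.3 or more and at 78.7% against 82.9% with 3 or more. The HFD H3K27me3 list had the lower background pileup of the 2 diets, and its part in the HFD shares was not tested.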
